A study of Mus musculus with 4 samples.

Results

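The cells described here came from skin tumors that had been sorted for the immune surface protein CD45, yet carried collagen RNA and almost no RNA of Ptprc, the gene that encodes CD45. They were chosen by raw counts of unique molecular identifiers (UMIs, each standing for 1 captured RNA molecule): at least 10 UMIs of Col3a1, Col1a1, Col1a2 and Col6a1 in sum and at most 1 UMI of Ptprc, among cells with at least 1000 UMIs and at most 15% of UMIs in mitochondrial genes. The rule found 136 cells among the 6820 tumor cells and 13124 cells of the series that passed both limits, 44 in tumor 1 and 92 in tumor 2. They made up 0.914% of tumor 1 (exact binomial 95% interval 0.665 to 1.23%) and 4.58% of tumor 2 (3.71 to 5.59%), intervals that cover counting error only. The same rule found 0 cells in control skin 1 and 1 cell in control skin 2.

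The series held 2 tumors of the 2323 line and 2 control skins, all profiled by droplet 3′ single-cell RNA sequencing. The 2323 line goes back to a grafted skin tumor of the ktiKPP model, in which a keratin 14 promoter drove rtTA, rtTA switched on a tetO-Cre transgene, and Cre removed p53 among its targets. Its cells were injected under the skin of C57BL/6 mice, and the control skins came from C57 animals that received no cells. All 4 samples were digested with collagenase IV and sorted as CD45+/DAPI-, so the collagen-expressing cells are cells that remained after a gate meant to remove them, and their share in a library is no measure of their share in the tumor. The 2 tumors share 1 cell line, and the differences between them are differences between 2 libraries.

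Fibroblasts are the usual collagen-producing cells of the dermis, where they lay down fibrillar collagens of types I, III and V. Carcinoma cells of epidermal origin normally carry keratins and E-cadherin and can lose both when they take on a mesenchymal form, in which they may also make matrix. Collagen RNA alone therefore does not separate a fibroblast from such a tumor cell. The question put to the data was which other genes these cells carried: those of skin fibroblasts, those of epithelium, or those of a tumor line.

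In tumor 1, the collagen sum ranged from 10 to 182 UMIs per cell with a median of 22.5, and in tumor 2 from 10 to 267 with a median of 59. Ptprc was at 0 in 115 of the 136 cells and at 1 UMI in the other 21. These values chose the cells and are no finding. Just inside the threshold, at 10 to 14 collagen UMIs, lay 13 cells of tumor 1 and 7 of tumor 2. Just outside it, at 5 to 9 UMIs with the same limit on Ptprc, lay 16 and 12 cells. Cdkn2a, which was not part of the rule, had a UMI in 12 of 13 and 6 of 7 cells just inside and in 13 of 16 and 11 of 12 cells just outside. In tumor 1 the median was 12 Cdkn2a UMIs just inside and 3.5 just outside, at 22286 and 17943 UMIs per cell, and in tumor 2 it was 11 and 15. Among all Ptprc-low cells below it, 10 of 345 in tumor 1 and 14 of 152 in tumor 2 had at least 5 Cdkn2a UMIs.

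**Figure D1:**
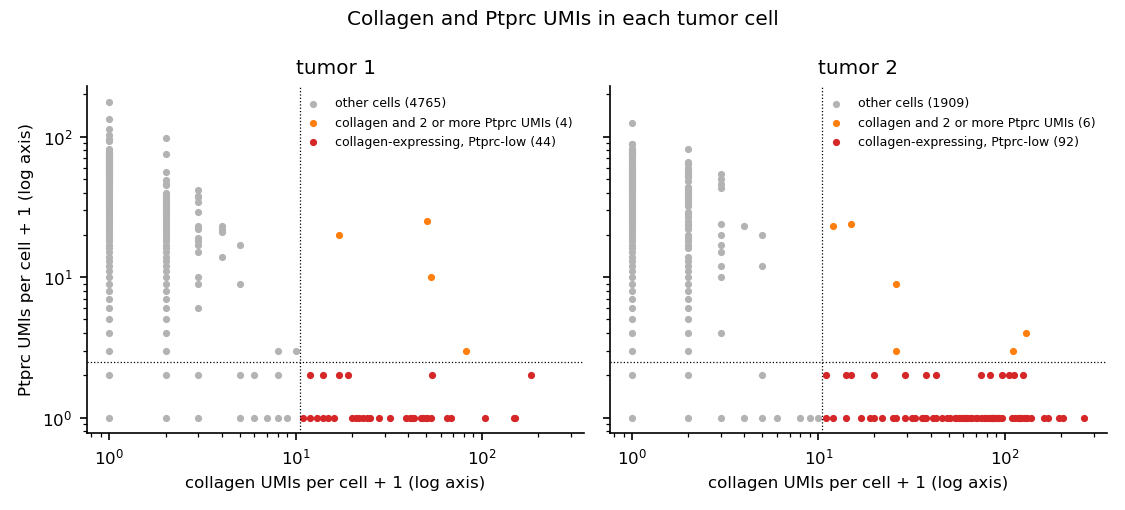
Each point stands for the tumor cells with 1 pair of values, with the collagen sum (UMIs per cell plus 1) on the x axis and Ptprc (UMIs per cell plus 1) on the y axis, both logarithmic. Dotted lines mark the rule. The chosen cells, 44 and 92, lie at the lower right, while 4 and 6 cells with collagen and at least 2 Ptprc UMIs lie at the upper right.

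The collagen-expressing cells were deep libraries of their own. Their median was 30249 UMIs and 5844 genes per cell in tumor 1 and 38628.5 UMIs and 6532.5 genes in tumor 2. The cells with at least 2 Ptprc UMIs of the same libraries (4424 and 1763 cells, called Ptprc cells from here on) had medians of 13452.5 and 13755 UMIs. Summed, the collagen-expressing cells held 1456512 and 3715540 UMIs of the 73904272 and 34893543 UMIs in the tumor libraries. The mitochondrial share was 2.42 and 2.07% in the median cell, against 1.90 and 1.51% in Ptprc cells. No barcode of these cells occurred in another library, although the tumor libraries shared 2 barcodes with each other.

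Across the transcriptome, levels were compared by summing UMIs over cells and taking the log2 ratio of CPM (UMIs of a gene per 1000000 UMIs summed over the cells) with 5 CPM added to both sides, separately in each tumor. Genes with a mean of at least 5 CPM were compared, and a gene was called when it was at least 4-fold different in the same direction in both tumors. No test was run, since the rule that chose the cells had used this contrast. Of 10711 genes, 623 (5.82%) were higher and 725 (6.77%) lower in the collagen-expressing cells. The median log2 ratio over all genes was 0.28. A gene that was low in Ptprc cells reached 5 CPM only where it was high in the collagen-expressing cells. In the same way, a gene low in the collagen-expressing cells reached it only through the Ptprc cells. Counts of higher and of lower genes in the lists below therefore follow in part from this filter and are given as descriptions only.

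Most immune genes had few UMIs in the collagen-expressing cells. In the median cell, 6 genes of myeloid and pan-immune RNA (Tyrobp, Fcer1g, Laptm5, C1qa, C1qb and C1qc) summed to 2 UMIs in tumor 1 and 1 UMI in tumor 2, and no cell reached 10. In Ptprc cells the median sums were 49 and 46. Beside 6.77% lower over all genes, all 10 macrophage genes were lower, as were 9 of 10 pan-immune genes (Ptprc, a gene of the rule, among them), 7 of 8 T and NK cell genes and the 3 neutrophil genes measured. Of 6 dendritic cell genes, 2 were lower, 3 neither and 1 higher. That gene was Fscn1, which encodes the actin-bundling protein fascin and had 544 UMIs in 112 of 136 cells, and under another scaling (TMM, which trims extreme genes from the library factors) none of the 6 was higher. The pan-immune gene that was not called, Arhgdib, had 506 UMIs in 97 cells. Lyz2, which encodes macrophage lysozyme and was the most abundant of the macrophage genes, stood at no more than 32.3 CPM in either tumor against 3493 and 5255 CPM in Ptprc cells. Cd3e, a T cell receptor subunit, had no UMI in any of the 136 cells. Free RNA from other cells gives such low levels in droplet data, and its part in the remaining counts was not tested. The label non-immune and the counts of lower immune genes were set in part by the rule itself, through Ptprc, and by the filter.

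Leaving out the genes of the rule, Sparc, which encodes a collagen-binding matrix protein, had the highest mean log2 ratio to Ptprc cells (6.51), at 759 and 1100 CPM against 3.62 and 6.78 CPM. Serpinh1, the collagen chaperone HSP47, was at 526 and 498 CPM against 1.71 and 3.29, and Pcolce, which enhances the cleavage of procollagen, at 424 and 562 CPM against 2.07 and 3.99. Aebp1, a collagen-binding matrix protein, was at 505 and 532 CPM against 1.40 and 1.95 CPM. The other genes among the 15 furthest above were Magi1, Cxcl1, Cdkn2a, Cald1, Mgp, Fstl1, Rhox5, Ank3, Pdzrn3, Ppic and Htra1, with mean log2 ratios from 5.96 down to 5.44. At the other end stood Lyz2, Cd74, H2-Eb1, C1qa, H2-Aa, Tyrobp, Ctss, Il1b, H2-Ab1 and Srgn, genes of myeloid and antigen-presenting cells, with mean log2 ratios from -7.08 to -6.68.

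The collagen profile was uneven. Of the 44 collagen alpha chain genes in the files, 19 reached 5 CPM on average, and 17 of these were called higher, 3 of them genes of the rule, beside 5.82% over all genes. Under TMM scaling 16 of the 19 were higher. The other 25 did not reach that level, and nearly all that did reached it through the collagen-expressing cells. Col3a1, the chain of type III collagen, carried most of the gate, with a UMI in all 136 cells and 899 and 1358 CPM. Col6a1 had a UMI in 130 cells and Col6a2 in 112, and both encode chains of type VI collagen. Basement membrane collagen was present too, with Col4a1 at 171 and 264 CPM and Col4a2 at 96.8 and 128 CPM. Col18a1 stood at 174 and 179 CPM and Col7a1, the anchoring fibril collagen at the junction of epidermis and dermis, at 79.0 and 79.1 CPM. In Ptprc cells none of these 4 exceeded 4 CPM.

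The chains of type I collagen, the main collagen of dermal fibroblasts, differed in these cells, and both are genes of the rule. Col1a2 had 0 UMIs in the 44 cells of tumor 1 and 13 UMIs in 6 of the 92 cells of tumor 2, or 3.50 CPM (exact Poisson interval 1.86 to 5.98), of which 8 UMIs came from 1 cell. Col1a1 was at 66.6 and 60.3 CPM but had a UMI in only 8 of 44 and 24 of 92 cells, so a minority of cells carried it. Values of control skin stand beside these as a description only, since both genes were part of the rule. All 13 cells of control skin with a collagen sum of at least 10, of which 12 had at least 2 Ptprc UMIs, held Col1a2, with 86 UMIs in all against 78 of Col3a1. In the 136 collagen-expressing tumor cells the same counts were 13 and 6355. The control cells mostly carried Ptprc RNA and are no fibroblast reference, and no test was run.

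The fibroblast list was split. Of its 20 genes, 8 were called higher (5.82% over all genes), 1 lower (6.77% over all genes) and 4 neither, and 7 did not reach 5 CPM. The 8 were all below 5 CPM in Ptprc cells on average, so they passed the filter through the collagen-expressing cells. Dpt, the matrix protein dermatopontin, was at 170 and 251 CPM against 0.812 and 1.88 CPM, with a UMI in 128 of 136 cells. Mmp2, a gelatinase, was at 130 and 323 CPM and had a UMI in 127 cells. Fbln1, Pdgfrb, Prrx1 and Twist2, the last 2 being transcription factors of mesenchymal cells, were also higher in both tumors. The tumors differed in the level of Dcn, which encodes the proteoglycan decorin, at 22.7 and 82.9 CPM, and of Postn, which encodes periostin, at 28.8 and 157 CPM.

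Other genes of the same list were at or near 0. Thy1, a surface protein of fibroblasts and T cells, was at 0 and 1.35 CPM and lower than in Ptprc cells (36.2 and 51.5 CPM). Pi16, Mfap5, Col14a1, Lox and Clec3b, all abundant in resting dermal fibroblasts, had a UMI in 2, 0, 1, 1 and 2 of the 136 cells. Pdgfra, the receptor often used to mark fibroblasts, was at 17.9 and 11.6 CPM with a UMI in 27 cells. Summed over the 20 genes, the list stood at 674 and 1204 CPM against 82.6 and 95.2 CPM, with Dpt its most abundant gene in tumor 1 and Mmp2 in tumor 2. The members called higher encode matrix proteins and enzymes, a growth factor receptor and transcription factors of mesenchymal cells.

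Most epithelial genes had few UMIs or none. Krt5 and Krt14, the keratins of basal epidermis, had 0 UMIs in 5172052 UMIs, and Krt15, Krt6a, Krt17, Krt1, Dsg3 and Perp were at 0 as well. Cdh1, which encodes E-cadherin, and Epcam had 1 UMI each. Krt14 is the gene whose promoter drove the transgene from which the line came. In control skin, 38 cells were chosen by at least 10 UMIs of Krt5 and Krt14 in sum and at most 1 of Ptprc. They held 4202 CPM of Krt14, a level that follows in part from that choice. Krt18, a keratin of simple epithelia, was the exception at 32.3 and 5.92 CPM, with a UMI in 15 cells. Of the 5 keratinocyte and epithelial genes that reached 5 CPM, none was called in either direction, beside 5.82% higher and 6.77% lower over all genes. With 5 genes the count says nothing about the list, and under TMM scaling 1 was lower. The highest was Itga6, an integrin chain, at 92.7 and 61.4 CPM.

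Genes that mark mesenchymal change in carcinoma were mixed. Of 11 measured, and beside 5.82% higher and 6.77% lower over all genes, Cdh2 (N-cadherin), Twist1, Prrx1 and Sparc were higher and Zeb2 and Tgfbi lower, both of which macrophages also carry. Twist1 stood at 115 and 169 CPM against 0.826 and 1.64, with a UMI in 126 cells. Vim, which encodes vimentin and is carried by immune cells too, was at 2498 and 3160 CPM against 754 and 1213 CPM. Markers of other non-immune cells were uneven. Of 12 pericyte and myofibroblast genes, Cnn1, Rgs5, Abcc9 and Des were at 0. Myl9, a myosin light chain, was called higher with a UMI in 34 cells, but under TMM scaling no gene of the list was called. Notch3 had a UMI in 44 cells and Acta2 in 8. That list summed to 61.8 and 64.3 CPM against 3.89 and 4.90 CPM. Of the endothelial list, Kdr and Cldn5 were at 0, and Pecam1, an adhesion molecule that immune cells carry too, had 187 UMIs in 21 cells. Of the melanocyte list, Dct, Tyrp1 and Tyr were at 0, and Mitf, a transcription factor also carried by macrophages, had 340 UMIs in 95 cells. Of the Schwann cell and skeletal muscle lists no gene reached 5 CPM.

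**Figure D2:**
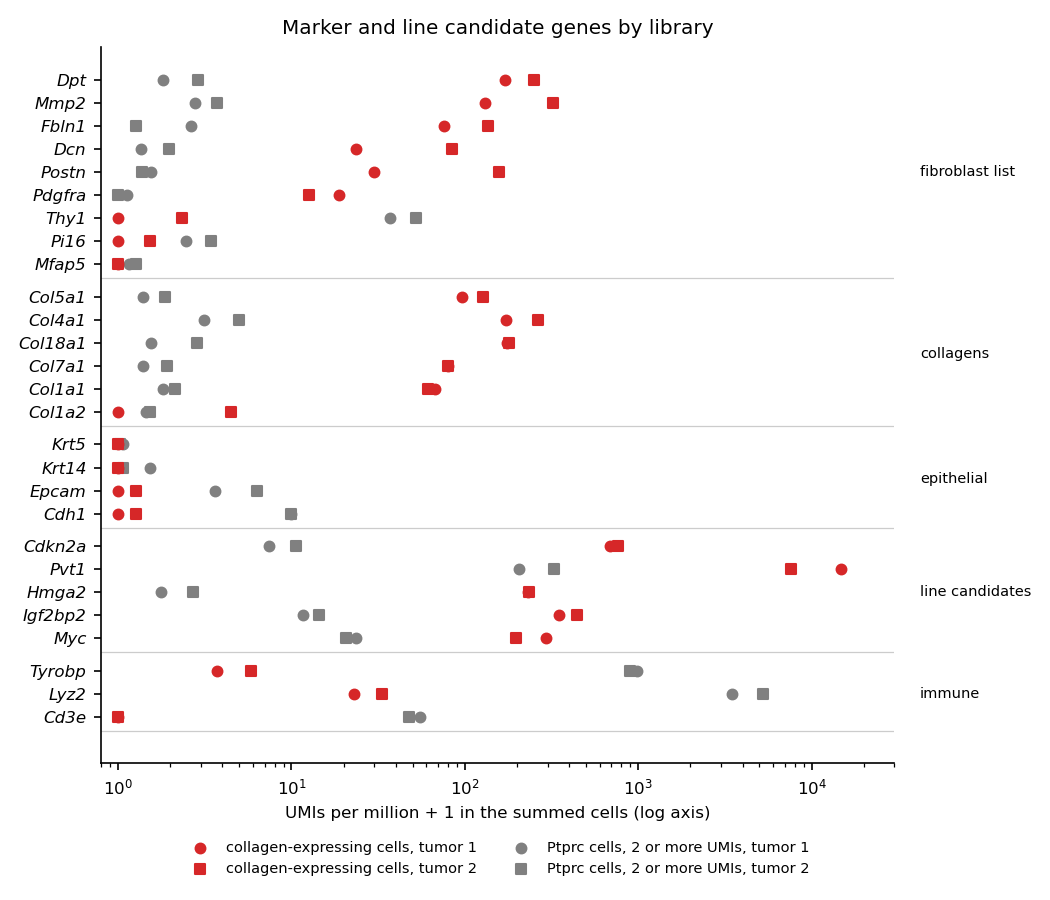
Levels of named genes in the summed collagen-expressing cells (red) and Ptprc cells (grey) of tumor 1 (circles) and tumor 2 (squares), as CPM plus 1 on a logarithmic x axis, with genes on the y axis. Dpt, Mmp2, the collagens other than Col1a2 and the line candidate genes lie to the right in red in both tumors, while Krt5 and Krt14 lie at 1, which stands for no UMI.

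Growth and tumor genes made up a further group. Cdkn2a encodes the tumor suppressors INK4A and ARF, whose transcripts share a 3′ end and are not told apart by these counts, and it is nearly silent in most adult cells. It stood at 689 CPM (exact Poisson interval 647 to 733) in tumor 1 and 768 CPM (740 to 796) in tumor 2, against 6.47 and 9.66 CPM in Ptprc cells. A Cdkn2a UMI was found in 134 of 136 cells, against 6.37 and 5.33% of Ptprc cells. With every cell thinned to 1000 UMIs, the shares were 38.6 and 51.1% against 0.520 and 0.624%. In control skin, Ptprc cells held 1.32 and 0.742 CPM and the 38 keratin-gated cells held none. Its neighbour Cdkn2b, another inhibitor of cell cycle kinases, was at 113 and 117 CPM against 2.41 and 3.09 CPM.

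Pvt1, a long non-coding RNA gene next to Myc on chromosome 15, had a UMI in all 136 cells. It took 14739 and 7641 CPM of the cells' UMIs, against 204 and 324 CPM in Ptprc cells and 43.4 and 38.1 CPM in Ptprc cells of control skin. Between cells it varied widely, from 1637 to 58859 CPM with a median of 8527 in tumor 1 and from 66.2 to 63626 CPM with a median of 3852 in tumor 2. Myc itself was at 292 and 197 CPM against 22.5 and 19.6 CPM, with a mean log2 ratio of 3.24.

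The genes around Pvt1 (chr15:62037986-62378096, plus strand, GRCm38) differed among themselves. Within 3 Mb on either side of its start, 11 genes were compared, and the 4 called higher, beside 5.82% over all genes, were Myc, Pvt1 and the unnamed loci AC160335.1 (44.6 and 26.9 CPM against 0.214 and 0.671) and AC134453.1 (109 and 377 CPM against 0.826 and 0.738). The starts of these loci lie 503 kb before and 530.0 kb after that of Pvt1. The mean log2 ratios of the other genes ran from -4.02 for Gm2682 to 1.04 for Asap1, with Nsmce2 at 0.06 and Fam49b at -1.33. These neighbours were chosen after the level of Pvt1 had been seen. A copy number was not measured.

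Of 15 genes listed as candidates for the tumor line, with earlier results of these data known, 7 were called higher (5.82% over all genes) and 5 neither, and 3 did not reach 5 CPM. Besides Cdkn2a, Cdkn2b and Myc these were Hmga2, Igf2bp1, Igf2bp2 and Egfr. Hmga2, a chromatin protein of embryonic and tumor cells, was at 231 and 233 CPM against 0.769 and 1.71, and had a UMI in 125 cells. Igf2bp2, an RNA-binding protein of the same fetal program, was at 350 and 444 CPM against 10.6 and 13.4 CPM. Igf2 and H19 were at 0. Trp53 was at 39.1 and 40.6 CPM against 48.3 and 45.3, and the deleted part of the gene was not tested.

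A Cdkn2a UMI together with at least 10 Pvt1 UMIs was found in 130 cells, and in 121 of them a Hmga2 UMI as well. Dcn, Lum or Pdgfra was found in 70 cells. With Cdkn2a in 134 of 136 cells, its presence beside any other gene carries no information on whether the genes occur together. The 2 cells without Cdkn2a differed from each other. The cell of tumor 1 had 156 Pvt1, 2 Hmga2, 14 Col3a1 and 3 Postn UMIs and no Col1a1 or Col1a2. The cell of tumor 2 had 4 Pvt1, 0 Hmga2, 2 Col3a1, 2 Col1a1, 8 Col1a2 and 10 Postn UMIs. Neither cell had a Dcn UMI.

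Another 10 tumor cells had at least 10 collagen UMIs but also 2 to 24 Ptprc UMIs and so fell outside the rule. All 10 carried Cdkn2a, 9 carried Hmga2, and none carried Col1a2. Of the 13 collagen cells of control skin, none carried Cdkn2a, 1 carried Hmga2, and Pvt1 did not exceed 9 UMIs. Whether the 10 cells were pairs of cells in 1 droplet was not tested. A doublet score removed 3 of the 136 cells when its top scores were left out. Of the 136 cells, 1 had neither Cdkn2a nor Hmga2. The files hold no profile of the 2323 line on its own, so a direct match to it was not tested, and these counts do not by themselves say whether a cell came from the line or from the host.

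Of 13 p53 targets and regulators measured, Eda2r was higher, Cdkn1a lower and 11 neither, shares near the 5.82% and 6.77% over all genes, so the count says nothing about the list. Cdkn1a, the cell cycle inhibitor p21, was at 36.4 and 76.2 CPM against 318 and 423 CPM, and Mdm2, which encodes the ligase that degrades p53, at 71.4 and 79.9 CPM against 215 and 233. Eda2r, a receptor gene that p53 induces, was at 30.9 and 37.1 CPM against 0.0570 and 0.268. Keratin-gated cells of control skin held 328 CPM of Cdkn1a and 44.5 CPM of Mdm2, so Cdkn1a was low against them as well and Mdm2 was not.

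Output genes of the RAS and MAPK pathway went both ways. Of 18 measured, 5 were higher (Spry4, Etv4, Fosl1, Ereg and Hbegf), 1 lower (Dusp5) and 12 neither, beside 5.82% higher and 6.77% lower over all genes, and under TMM scaling 3 were higher. Ereg, which encodes the EGF receptor ligand epiregulin, was at 75.5 and 169 CPM against 0.142 and 0.470 CPM, and Hbegf, another ligand of that receptor, at 206 and 177 CPM against 15.5 and 31.8. Fosl1, a transcription factor of the AP-1 family, was at 163 and 117 CPM against 7.49 and 12.3 CPM. Hbegf and Fosl1 were at 214 and 191 CPM in the keratin-gated control cells too. Of 15 cell cycle genes, Mki67 was lower and 14 were neither, a share near the 6.77% lower over all genes, and Mki67 had a UMI in 31 of 136 cells.

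Secreted signals followed no common direction. Of 23 ligands measured, 5 were higher and 5 lower, beside 5.82% and 6.77% over all genes, and 13 neither. Under TMM scaling 8 were lower, and the median log2 ratio went from 0.16 to -0.41. Cxcl1, which attracts neutrophils, was the most abundant of them, at 2424 and 2778 CPM against 20.5 and 69.2 CPM, with a UMI in 35 of 44 and 88 of 92 cells. Csf1, the growth factor of macrophages, was at 185 and 309 CPM against 10.4 and 17.2, and Csf3, that of neutrophils, at 53.6 and 68.1 CPM against 0.470 and 0.671. Tgfb2 and Vegfc were higher at 53.6 and 50.9 CPM and 80.3 and 112 CPM. Ccl2, which attracts monocytes, was at 1087 and 2266 CPM against 280 and 263 CPM and passed the 4-fold line in tumor 2 only. Lower were Cxcl9, Cxcl16, Ccl8, Pdgfb and Inhba.

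Of 30 matrix and remodelling genes, 9 were called higher (5.82% over all genes), none lower and 14 neither, and 7 did not reach 5 CPM. Under TMM scaling 1 was lower. Hspg2, which encodes the basement membrane proteoglycan perlecan, stood at 122 and 157 CPM, Lamb1, a laminin chain, at 88.6 and 129 CPM, and Tnc, which encodes tenascin C, at 81.7 and 112 CPM. Fn1, which macrophages also carry, was among the 14 called neither, at 176 and 263 CPM against 82.3 and 345 CPM.

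Genes of antigen presentation divided by class. The class II genes H2-Aa, H2-Ab1, H2-Eb1 and Cd74 and their regulator Ciita were lower, as were Cd274 and Ifngr1. These were 7 of 23, beside 6.77% lower over all genes, and the other 16 were neither. The class I genes stayed near the level of immune cells: B2m was at 2584 and 3025 CPM against 3101 and 2772, H2-K1 at 1256 and 1749 CPM against 1455 and 1403, and H2-D1 at 1226 and 1975 CPM against 1532 and 1689. Cd274, which encodes PD-L1, was at 31.6 and 31.8 CPM against 473 and 518 CPM. All 136 cells had UMIs of B2m, H2-K1 and H2-D1.

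Genes of the Y chromosome were uneven in these cells. Xist, the RNA of the inactive X in female cells, had 0 UMIs in the collagen-expressing cells and stood at 0.456 and 0.671 CPM in Ptprc cells, and all 4 libraries carried Y genes. Kdm5d, a Y-linked histone demethylase (chrY:897788-956786, GRCm38), had 0 UMIs in the 136 cells. At the level of Ptprc cells, 14.6 and 13.9 CPM, 21.3 and 51.7 UMIs would have been counted, so with a floor of 3 counts per library the gene was at least 7.11-fold and 17.2-fold lower. Keratin-gated control cells had 13 Kdm5d UMIs in 10 of 38 cells. Ddx3y, a Y-linked RNA helicase (chrY:1260771-1286629), was at 1.37 CPM (0.166 to 4.96) in tumor 1 and 30.1 CPM (24.8 to 36.3) in tumor 2, against 96.6 and 143 CPM. It had a UMI in 2 of 44 and 60 of 92 cells. The intervals of the tumors did not overlap, but they cover counting error only, with 1 library for each tumor.

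The genes between these 2 on the chromosome were present. Eif2s3y (chrY:1010543-1028847) was at 59.7 CPM in tumor 1 (47.8 to 73.7), against 55.3 CPM in Ptprc cells, and its interval in tumor 2 (90.7 to 111) lay above the 54.8 CPM of Ptprc cells, with a UMI in 28 of 44 and 75 of 92 cells. Uty (chrY:1096861-1245759) was at 117 and 234 CPM against 151 and 198 CPM, with a UMI in 35 and 74 cells. Of the 4 genes, Kdm5d alone had no UMI. Whether its DNA was present was not tested.

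**Figure D3:**
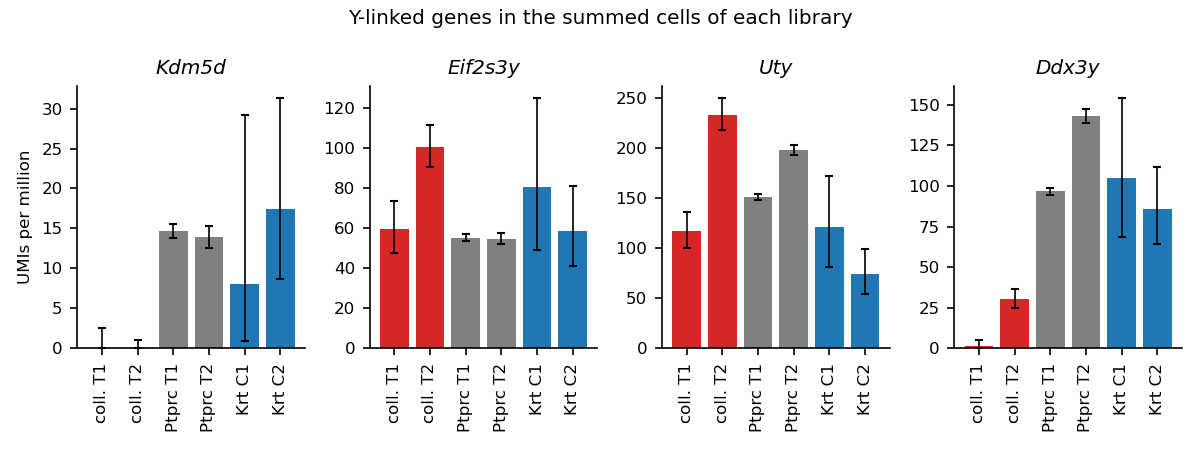
Bars give the CPM of 4 Y-linked genes in summed collagen-expressing cells (coll.), Ptprc cells and keratin-gated control cells (Krt) of tumors T1 and T2 and controls C1 and C2, and error bars the exact Poisson 95% interval. Kdm5d is at 0 in both red bars, Ddx3y is at 1.37 and 30.1 CPM, and Uty is at 117 and 234 CPM, against 151 and 198 CPM in Ptprc cells of the same tumors.

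The level of each chromosome's genes was taken as the median log2 ratio to Ptprc cells (1 CPM added, genes with a mean of at least 20 CPM that had not been used for clustering) minus the median over all such genes. Chromosome 13 stood highest in the mean of the tumors, at 0.42 and 0.39 over 270 and 257 genes. Chromosome 3 followed at 0.19 and 0.46. Chromosome 12 was lowest in that mean, at -0.38 and -0.16 over 227 genes in each, and chromosome 19 stood at -0.17 and -0.28. In tumor 2 alone, chromosomes 7 and 19 stood below chromosome 12. Against keratin-gated cells of control skin, chromosome 13 was at 0.39 and 0.30, chromosome 12 at -0.33 and -0.08, and chromosome 7 at -0.09 and -0.41. Chromosome 3 was at 0.0017 and 0.32, so that it did not stand out in tumor 1 by that comparison. The remaining chromosomes lay between -0.34 and 0.26 in each tumor. Chromosome 7 differed between the tumors, at -0.03 and -0.34. Such medians rest on expression, in which cell type and copy number cannot be told apart.

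**Figure D4:**
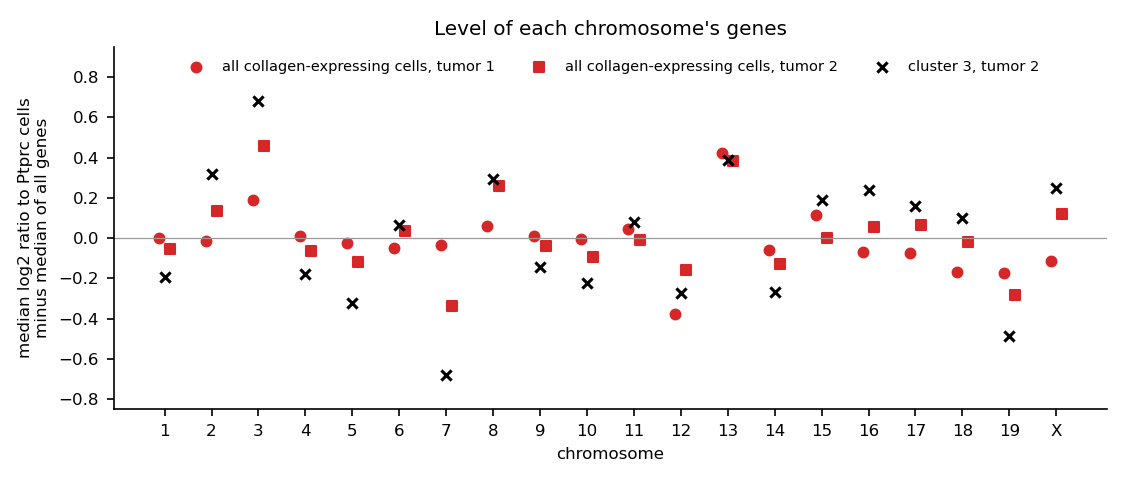
For each chromosome on the x axis, the y axis gives the median log2 ratio of its genes in collagen-expressing cells to Ptprc cells of the same library, minus the median of all genes. Circles are tumor 1, squares tumor 2 and crosses the cells of cluster 3 in tumor 2. Chromosome 13 is high in all 3 (0.42, 0.39 and 0.39), and chromosome 7 is at -0.68 in cluster 3.

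Clustered among themselves without the rule, sex, mitochondrial and ribosomal protein genes, the 136 cells fell into 3 clusters of 72, 34 and 30 cells. Cluster 1 held 36 cells of each tumor, which was 81.8% of tumor 1 and 39.1% of tumor 2. Cluster 2 held 5 and 29 cells and cluster 3 held 3 and 27. The clusters were defined by the genes given next, so these are descriptions with no test, and none was given a cell type name. Clustering tumor 1 alone gave 1 cluster. Most leading genes of cluster 1 came from few cells, with Dusp2 in 31, Peg10 in 24 and Krt18 in 13 of its 72 cells.

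The leading genes of cluster 2 included Postn, Csmd1, Agt, Itgbl1, Lum, Dcn, Col12a1, Apod and Mgat4c, of which Postn, Lum and Dcn are on the fibroblast list. Csmd1 came from 1 of its 34 cells and Mgat4c from 3, while Postn was in 30. In tumor 2, Postn was at 561 CPM in cluster 2 against 51.3 in cluster 1 and 2.70 in cluster 3, and Dcn at 269 CPM against 43.0 and 4.05. Genes of the line candidate list and Pvt1 varied between clusters: Cdkn2a was at 851 CPM in cluster 2 of tumor 2 against 889 and 607 CPM in clusters 1 and 3, Hmga2 at 220 CPM against 263 and 213, and Pvt1 at 8721 CPM against 12160 and 2929 CPM. Col1a2 had a UMI in 4 of those 29 cells. Ereg was at 472 CPM in that cluster against 124 and 23.6 CPM.

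Cluster 3 was led by Gm26870, Vmn2r54, Vmn2r55, Mgst1, Tnfsf9, Pde4c, Pecam1, Gstm1, Park2 and Pard3b. Of these, Gm26870 and Pecam1 came from 8 of its 30 cells each and Pde4c from 4. Vmn2r54, a vomeronasal receptor gene, had a UMI in 26 of its 27 cells of tumor 2 and in no other collagen-expressing cell. Mgst1 and Gstm1, which encode glutathione transferases, were at 220 and 228 CPM there against 10.6 and 23.4 CPM in cluster 1 of the same tumor. Rhox5, an X-linked homeobox gene of the germ line that some tumors carry, was at 990 CPM against 211. Igf2bp1, Lum and Col6a3 ran the other way, at 0, 0 and 13.5 CPM against 53.6, 12.8 and 72.4 CPM, and Pdgfrb was at 0.676 against 49.8 CPM.

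Genes that the clustering had not used are given for cluster 3 as a description, since they come from the same cells. Uty was at 382 CPM in its cells of tumor 2 against 162 and 96.7 CPM in clusters 1 and 2, and Eif2s3y at 155 CPM against 82.2 and 38.5. Against cluster 1 of the same tumor, the genes of chromosome 7 were at -0.65 and those of chromosome 3 at 0.29, while chromosome 13 was at 0.03. By that comparison chromosomes 2, 4, X and 19 stood at 0.28, -0.26, 0.25 and -0.24, close in size to chromosome 3. Against the same cluster, cluster 2 stood between -0.19 and 0.12 on every chromosome. The 3 cells of tumor 1 in cluster 3 were unlike the 27 of tumor 2. They had a median of 17030 UMIs and 7.81% mitochondrial UMIs, against 54991 UMIs and 2.81%, with no UMI of Vmn2r54, Mgst1 or Cxcl1.

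**Figure D5:**
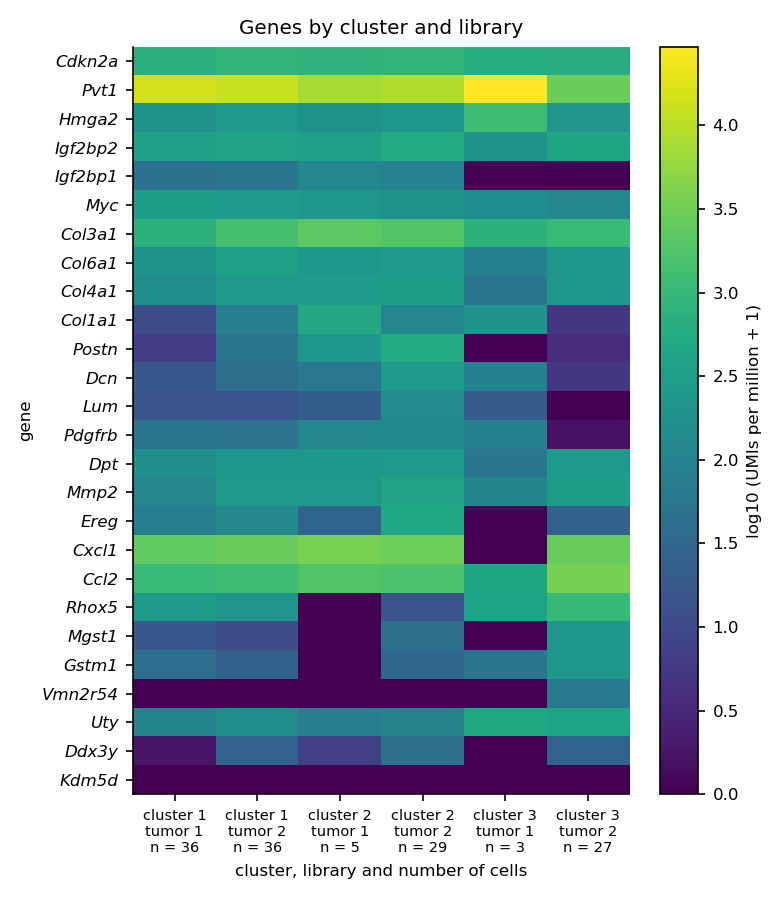
Colour gives log10 of CPM plus 1 for named genes (y axis) in each cluster and tumor (x axis, with the number of cells). Cdkn2a, Pvt1, Hmga2 and Igf2bp2 are present in all 6 columns and Kdm5d in none, Postn, Dcn and Lum are highest in cluster 2 of tumor 2, and Vmn2r54 is seen only in cluster 3 of tumor 2.

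Tumor 2 differed from tumor 1 beyond the size of the clusters. Within cluster 1, which had 36 cells of each tumor, Mmp2 was at 116 CPM in tumor 1 and 272 CPM in tumor 2. Ddx3y was at 0.798 and 24.1 CPM, with a UMI in 1 and 20 of 36 cells. Cdkn2a, at 678 and 889 CPM, and Hmga2, at 193 and 263 CPM, lay closer together. With 1 library for each tumor, differences between tumors and between libraries cannot be told apart.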

How the data were processed

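Cells from 2 tumors and 2 control skins were used. The authors aligned the reads to mm10 with Cell Ranger (version 7.1.0 in their methods and notes, 7.0.1 in the file headers) and deposited filtered matrices of raw UMI counts per gene and cell; nothing was normalized or pooled in them. The authors' later steps (filters on genes, doublet removal, Harmony) are not in these counts; their gene filters were tried as an alternative, and no doublets were removed here except in an alternative. The tumor libraries held 73904272 and 34893543 UMIs in 5176 and 2258 barcodes.

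The members and all gene lists were chosen with earlier results of these data known. UMI counts were summed per library and scaled to CPM. Genes named in the text are those of the lists, the 15 highest and 10 lowest called genes (without rule, immunoglobulin, T cell receptor, mitochondrial and ribosomal protein genes), all collagens, and the 10 leading genes of each cluster; Pvt1, the genes around it and the cell-level patterns were chosen after their values were seen. Some listed genes are not reported here. Low genes are understated by the added 5 CPM. Clustering used 1000 variable genes, 15 components, 15 neighbours and Leiden at resolution 0.5 (leidenalg 0.10.2, igraph 0.11.9). Coordinates are from GENCODE vM21 (GRCm38), in which 31011 of 31053 gene IDs matched. Intervals are exact 95% intervals (scipy 1.17.1) and cover counting error only, as do floors of 3 counts. The fold rule was checked on simulated data, in which it missed some lowered genes of low level. Alternatives used edgeR 4.0.16 for TMM factors and Scrublet in scanpy 1.11.5.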

Additional observations from a re-analysis of the deposited data

How the results depend on the processing

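No paired analysis was possible because no test was run and control skin held 1 such cell, so replicate numbers could not pair tumors with control skins; ratios to Ptprc cells were taken within each library. The number of collagen-expressing cells lay between 103 and 164 over its 9 alternatives, within 1.5 times of 136. The counts of genes at least 4-fold higher or lower were 1010 higher with a pseudocount of 1 CPM, and 225 higher and 352 lower with 20 CPM. TMM scaling lowered the median of all genes by 0.48 (log2) and gave 456 higher and 990 lower, so that 31.5% of calls were higher against 46.2%; it moved the medians of the ligand list to -0.41, of the immediate early list to -0.23 and of the epithelial list to -0.89, and called 3 RAS and MAPK genes higher. Leaving out each tumor gave 757 to 808 higher and 849 to 886 lower. Of 408 values of 34 named log2 ratios, 289 moved by less than the spread between tumors, 119 by more, and 0 reversed. Cluster shares depended on resolution: at 0.3, clusters 1 and 2 merged at 77.9%, and at 1.0 cluster 1 fell to 26.5%. Without 1 tumor, the best matches of clusters 1, 2 and 3 held 23.9 to 100%, 44.6 to 100% and 31.5 to 100% of cells. Chromosome 13 was at 0.34 by the mean over genes and 0.34 against keratin-gated cells, while cluster 2 and cluster 3 against cluster 1 of tumor 2 stood at 0.12 and 0.033; chromosome 12, at -0.27 in the mean of the tumors, was at 0.034 in cluster 2 against cluster 1. These last values compare other cells. Thinning to 1000 UMIs lowered the share of cells with a UMI, as the unweighted mean of the tumors' percentages, from 72.6 to 7.21% for Eif2s3y and from 80.0 to 17.1% for Uty. Without cluster 3, tried after seeing the data, 651 genes were higher and 716 lower. Depth limits genes under about 2.06 CPM in tumor 1 and 0.807 CPM in tumor 2, the levels of 3 counts.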
